A study of Mus musculus with 2 samples.

Results

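The mature osteoblasts of the regenerating mouse digit tip were the barcodes with high levels of both collagen and osteocalcin transcripts. A barcode was one droplet's set of transcripts, and a unique molecular identifier (UMI) was one counted transcript molecule. Barcodes passed with 500 genes or more and no more than 10% of UMIs from mitochondrial genes. Osteoblasts were selected on measured values: a sum of Col1a1, Col1a2 and Col3a1 of at least 30 UMIs per 10000 (CP10k) and a sum of Bglap and Bglap2 of at least 30 CP10k. There were 190 osteoblasts among 5167 barcodes past the filters, out of 11023 deposited, and they were set against the 3587 other barcodes past the same collagen threshold. The levels of these 5 genes chose the cells, so the comparison is a description and carries no test.

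Droplet single-cell RNA sequencing had been run on 2 libraries, 1 from Lmx1bCreERT2;R26-LSL-TdT mice and 1 from PdgfraCreERT;R26-LSL-TdT mice. Both lines carried a tdTomato reporter at the Rosa26 locus that Cre recombination switches on, driven in one line by Lmx1b, a transcription factor of dorsal limb and nail mesenchyme, and in the other by Pdgfra, a receptor of fibroblasts and mesenchymal progenitors. Mice of both lines were 10 to 12 weeks old, were given tamoxifen at 3 mg per day for 4 days, and lost their digit tips 10 days later, so there was neither an uninjured nor an untreated group. The regrown tissue was taken 14 days after amputation, digested in Liberase at 280 µg/ml and 37 °C for 1 to 4 hours and passed through a 20 µm strainer. No sort was described, the number of animals pooled was not given, and with 1 library per line the line, its animals and its library cannot be told apart.

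Osteoblasts lay down a collagen matrix and then mineralise it, and some of them become buried and mature into osteocytes. Bone of the digit tip regrows largely without a cartilage model, from mesenchymal cells that turn into osteoblasts inside the blastema. Runx2 and Sp7 set up the lineage, Alpl and Ibsp accompany matrix formation, and Bglap, which encodes osteocalcin, marks the mature cell.

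The promoters of 3 genes on which the results turn are shown because they hold ACCACA, the core letters bound by RUNX factors. Bglap is the gene that chose the cells, Spp1 and Mmp13 are a pair that marked opposite sets of osteoblasts, and each window is the 250 bases before the RefSeq start (GRCm38.p6), with ACCACA in capitals. The Bglap window lies at chr3:88384467-88384716 on the minus strand, the Spp1 window at chr5:104434861-104435110 on the plus strand and the Mmp13 window at chr9:7272264-7272513 on the plus strand.
Bglap: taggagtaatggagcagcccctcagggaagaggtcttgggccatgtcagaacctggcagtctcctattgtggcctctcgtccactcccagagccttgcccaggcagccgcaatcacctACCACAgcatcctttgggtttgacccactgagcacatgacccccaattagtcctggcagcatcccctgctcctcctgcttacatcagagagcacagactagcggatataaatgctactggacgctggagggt
Spp1: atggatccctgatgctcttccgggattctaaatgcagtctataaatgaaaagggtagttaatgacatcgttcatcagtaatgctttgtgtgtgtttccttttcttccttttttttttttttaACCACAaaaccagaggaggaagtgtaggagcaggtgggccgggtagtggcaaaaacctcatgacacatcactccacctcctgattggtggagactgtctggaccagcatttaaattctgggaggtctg
Mmp13: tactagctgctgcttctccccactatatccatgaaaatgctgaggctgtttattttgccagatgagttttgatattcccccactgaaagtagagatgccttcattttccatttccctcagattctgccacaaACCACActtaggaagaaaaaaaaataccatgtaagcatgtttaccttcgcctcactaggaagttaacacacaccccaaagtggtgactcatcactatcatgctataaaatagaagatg
The motif began 132 bases before the start in Bglap, 128 in Spp1 and 118 in Mmp13. Searched on both strands, ACCACA was in 14.0% of all 32851 RefSeq windows of this length and 9.86% of 9476 windows of measured genes. It was in 8.90% of 146 windows of genes higher in osteoblasts and 8.57% of 677 windows of lower ones. By gene, it was in at least 1 window of 13 of 97 genes with an entry that were higher in osteoblasts (13.4%) and 55 of 516 that were lower (10.7%). The same held for 869 of 7354 measured (11.8%) and 4303 of all 27025 genes (15.9%). These 6 letters were not found in the windows given for Bglap3, Ibsp, Phex, Gal or Ifitm5, nor in a further window of Spp1. They were found in a window of Dmp1 and at 2 places in that of Mepe.

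The osteocalcin genes lie side by side on chromosome 3 of mm10, Bglap3 at chr3:88368616-88372743, Bglap2 at chr3:88377736-88378699 and Bglap at chr3:88383501-88384464, all on the minus strand. The Bglap transcript matched that of Bglap2 at 434 of 440 bases, including all of the last 100 bases, from which 3′ libraries draw their reads. For Bglap3 the last 100 bases matched at 98. How the authors' counting split reads among the 3 copies is therefore uncertain, and the rule used the sum of 2 of them. Dmp1, Ibsp, Mepe and Spp1, which encode secreted phosphoproteins of bone, lie within 238 kb of chromosome 5.

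The Lmx1b library held 163 osteoblasts, 8.49% of its 1921 collagen barcodes (95% Clopper-Pearson interval 7.28% to 9.82%). The Pdgfra library held 27 osteoblasts, 1.45% of its 1856 collagen barcodes (0.961% to 2.11%). All intervals given here cover counting error only and no difference between animals. The summed Bglap and Bglap2 level ran over osteoblasts up to 2420 CP10k in the Lmx1b library, with a median of 97.6, and up to 398 CP10k in the Pdgfra library, with a median of 78.5. The cells formed a continuum at the threshold: just inside it, at 30 to under 35 CP10k, were 17 Lmx1b and 1 Pdgfra barcodes, and just outside, at 25 to under 30 CP10k, 7 Lmx1b and 3 Pdgfra barcodes.

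**Figure D1:**
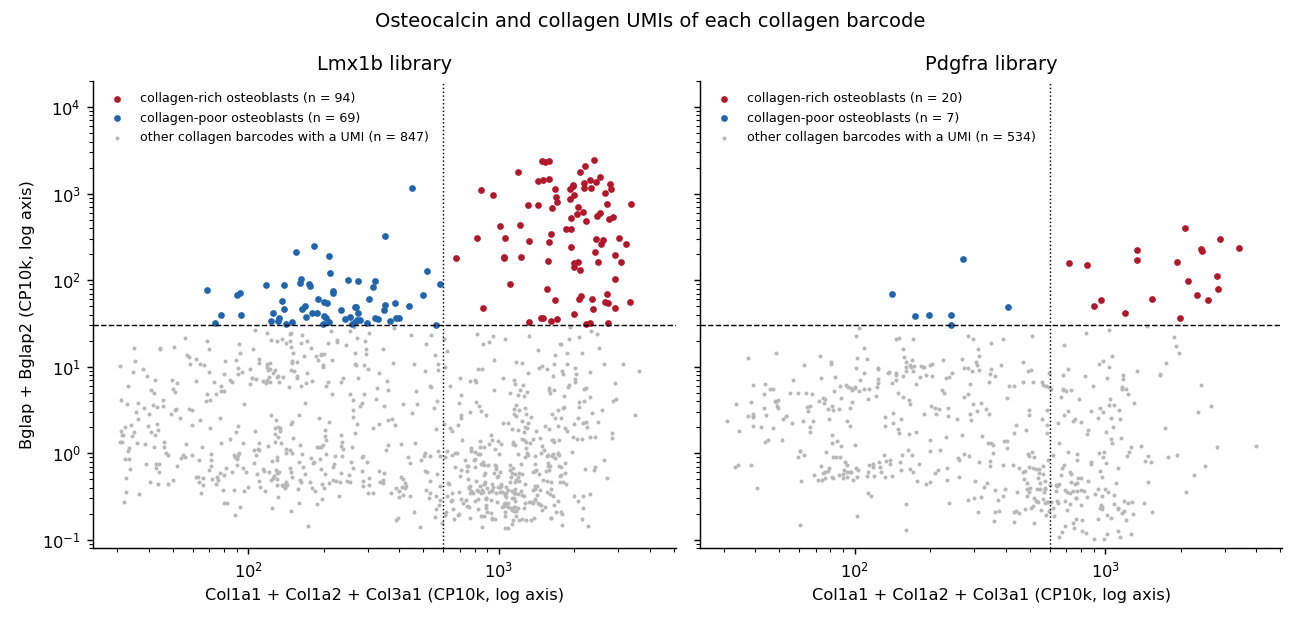
Summed Bglap and Bglap2 (vertical, CP10k, log axis) against summed Col1a1, Col1a2 and Col3a1 (horizontal, CP10k, log axis), 1 point per collagen barcode with a Bglap or Bglap2 UMI, Lmx1b library left and Pdgfra library right. Red points are collagen-rich osteoblasts, blue points collagen-poor ones and grey points other collagen barcodes; 60 of the 69 collagen-poor osteoblasts of the Lmx1b library lay under 100 CP10k of Bglap and Bglap2.

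Osteoblasts of the 2 libraries were about equally deep, with medians of 18725 UMIs per barcode in the Lmx1b library (range 832 to 100298) and 19861 in the Pdgfra library (1037 to 113008). Other collagen barcodes had medians of 18839 and 6393 UMIs in the Lmx1b and the Pdgfra library. The Pdgfra osteoblasts summed to 660291 UMIs, of which 1 barcode gave 17.1%, against 3536141 UMIs in the Lmx1b osteoblasts. Free osteocalcin RNA was present: 36.6% of 546 endothelial barcodes in the Lmx1b library and 17.3% of 248 in the Pdgfra library, at medians of 13364 and 12467 UMIs, had a Bglap or Bglap2 UMI. Their highest sums were 11.2 and 4.54 CP10k, below the threshold of 30. Over all barcodes under the collagen threshold the highest sums were 13.0 CP10k (Lmx1b) and 71.7 CP10k (Pdgfra), the latter above it. Under 5000 UMIs were 36 of 163 Lmx1b and 6 of 27 Pdgfra osteoblasts, and in the shallowest a few osteocalcin UMIs reach 30 CP10k. The part of free RNA in these barcodes was not tested. As deposited, 10 cell barcodes occurred in both libraries, none of them an osteoblast.

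Of the 5 fixed markers that the rule did not use, Spp1, Phex, Dmp1 and Car3 went with the label in both libraries when summed over all osteoblasts, unevenly from cell to cell. Gal went against it in the Pdgfra library, at 16.7 CPM in osteoblasts against 69.0 CPM in other collagen barcodes. Osteoblasts under 600 CP10k of collagen, the collagen-poor set described below, departed from this. Their log2 folds over other collagen barcodes were -0.058 (Lmx1b) and -2.17 (Pdgfra) for Spp1, -0.24 for Car3 (Lmx1b) and -0.33 for Phex (Pdgfra). Summed Phex, by less than 2-fold, and summed Dmp1 stayed higher in that set of the Lmx1b library. Most of this Dmp1 came from a cell of 23047 UMIs at 32.1 CP10k and a cell of 19179 UMIs at 39.6 CP10k. The Dmp1 fold without both cells was not tested. For the collagen-poor set the name osteoblast is that of the rule. Spp1, which encodes osteopontin, was found in 159 of 163 Lmx1b and 25 of 27 Pdgfra osteoblasts, at medians of 65.9 and 150 CP10k, against medians of 2.53 and 4.65 CP10k in other collagen barcodes. Phex, the endopeptidase of phosphate balance, had a UMI in 47.9% of Lmx1b and 51.9% of Pdgfra osteoblasts, against 12.2% and 7.71% of other collagen barcodes. Dmp1, a matrix phosphoprotein of maturing osteocytes, had one in 33.1% and 33.3% of osteoblasts, against 6.37% and 4.87% of other collagen barcodes and 2.38% and 1.21% of endothelial barcodes. These shares were taken at unequal depths. Phex and Dmp1 were found together: 79.6% of the Dmp1-positive osteoblasts of the Lmx1b library had a Phex UMI, at a median depth of 31916 UMIs, against 32.1% of the Dmp1-negative ones, at 15918 UMIs. All 5 of these markers were found in 13 of 163 Lmx1b and 1 of 27 Pdgfra osteoblasts, and none in 4 and 2.

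Summed over cells, 137 of 9490 measured genes were at least 2-fold higher in osteoblasts than in other collagen barcodes in both libraries (1.44%), and 724 were at least 2-fold lower (7.63%). Genes were measured where the mean of the sides was at least 5 CPM (UMIs scaled to 1000000 per set) in both libraries. For the Lmx1b library the median gene had a log2 fold of -0.26, and for the Pdgfra library one of -0.42. Centred on that median, 218 genes were higher and 467 lower. Leaving out, for each gene and library, the cell with most of its UMIs kept 102 of the 137 higher and 696 of the 724 lower genes. Here and below, that cell was taken from the side with the higher level. For lower genes it came from the far larger set of other collagen barcodes, so the shares kept cannot be compared between higher and lower genes. With 1 library per line, higher and lower here mean 2-fold apart in the same direction in both libraries. In sums over cells, fewer cells with a transcript and less of it per cell cannot be told apart.

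Among genes that the rule did not use, Bglap3, of the bone matrix list, had the largest fold. Of 18 measured, 6 were higher (Bglap3, Spp1, Ifitm5, Col13a1, Col22a1 and Col24a1) and 1 was lower (Mgp, an inhibitor of calcification). Bglap3 stood at 626 CPM in osteoblasts and 3.88 CPM in other collagen barcodes of the Lmx1b library, 161-fold apart (95% Poisson interval 136 to 192), and at 42.4 and 0.516 CPM in the Pdgfra library, 82.2-fold (43.0 to 163). Given the near-identical transcripts, Bglap3 is not a measure independent of the rule. Col22a1, a collagen of tissue junctions, stood at 197 CPM in osteoblasts and 11.05 CPM in other barcodes of the Lmx1b library (17.9-fold, 15.8 to 20.2) and at 129 and 6.45 CPM in the Pdgfra library (20.0-fold, 15.3 to 25.9). Spp1 stood at 25327 against 6381 CPM (3.97-fold, 3.94 to 4.00) and at 36646 against 4924 CPM (7.44-fold, 7.34 to 7.54). Ibsp, bone sialoprotein, stood at 15983 CPM in osteoblasts and 15885 CPM in other collagen barcodes of the Lmx1b library and at 22195 and 13358 CPM in the Pdgfra library, within 2-fold in both.

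Of 15 mineralisation genes, 5 were higher and none lower. Smpd3, the sphingomyelinase needed for bone mineral, stood at 420.2 CPM in osteoblasts and 193 CPM in other barcodes of the Lmx1b library and at 686 and 155 CPM in the Pdgfra library. The remaining 4 were Phex (4.34- and 6.87-fold), Dmp1 (11.5- and 27.5-fold), Car3, a carbonic anhydrase (250.3 against 6.59 CPM and 30.3 against 4.29 CPM), and Slc20a2, a phosphate transporter (2.57- and 2.21-fold), the Lmx1b values given first. Without the cell with most of its UMIs, the Pdgfra fold of Slc20a2 was 1.04. A single barcode held 64.6% of the Dmp1 UMIs of the Pdgfra osteoblasts. Alpl, alkaline phosphatase, was within 2-fold in both libraries, at 1430.1 against 1158 CPM and 1387 against 891 CPM.

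Among 11 osteocyte genes, 5 were higher: Dmp1, Phex, Sost, Fam20c and Ptprz1. Ptprz1, a receptor phosphatase, stood at 135 CPM in osteoblasts against 15.6 CPM in the Lmx1b library (8.67-fold, 7.67 to 9.80) and at 197 against 21.2 CPM in the Pdgfra library (9.28-fold, 7.63 to 11.2). Sost, the Wnt antagonist made by osteocytes, was found in only 8 Lmx1b and 3 Pdgfra osteoblasts, each with a Phex UMI, and its folds of 10.8 and 22.4 rest on those cells. Fgf23 had no UMI in any osteoblast.

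The transcription factors of the lineage differed in size of change. Of 18 measured, Dlx3, Dlx5 and Dlx6 were among the higher ones and Msx1, Msx2 and Twist2 were lower. Dlx3 was 5.73-fold higher (4.58 to 7.14) in the Lmx1b library and 8.81-fold higher (5.44 to 13.7) in the Pdgfra library. Runx2 stood at 246 against 128 CPM in the Lmx1b library and at 299.9 against 128 CPM in the Pdgfra library, and Sp7 at 204 against 112 CPM and 182 against 80.6 CPM, each past 2-fold in the Pdgfra library alone.

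Some secreted antagonists of Wnt and BMP signalling were higher and others lower. Of 23 Wnt genes, 5 were higher (Lrp4, Wif1, Dkk1, Sost and Notum) and 4 lower (Dkk2, Axin2, Sfrp2 and Lgr5). Notum was at 1.62- and 1.75-fold without the cell with most of its UMIs. Dkk1, which blocks the LRP co-receptors, stood at 109.7 CPM in osteoblasts against 24.3 CPM in other barcodes of the Lmx1b library (4.51-fold, 3.99 to 5.08) and at 117 against 25.7 CPM in the Pdgfra library (4.54-fold, 3.54 to 5.74). Wif1, which binds Wnt ligands, was 2.58-fold higher (2.47 to 2.69) and 2.94-fold higher (2.68 to 3.22). Of 25 BMP and TGF-beta genes, 4 were higher (Bmp8a, Smad6, Smad9 and Nog) and 2 lower (Fst and Tgfb3). Nog was 4.19- and 3.23-fold higher, but 1.56-fold in the Pdgfra library without the cell with most of its UMIs. Vdr, the vitamin D receptor, was the 1 higher gene of 17 of the hormone list, at 39.0 against 10.7 CPM and 48.5 against 10.03 CPM.

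Among the 15 higher genes with the largest folds were 3 with roles outside those lists. Slc36a2, an amino acid transporter, stood at 117 against 5.37 CPM in the Lmx1b library (21.8-fold, 18.4 to 25.9) and at 77.2 against 3.48 CPM in the Pdgfra library (22.2-fold, 15.6 to 31.2). Dapk2, a death-associated kinase, was 16.04-fold higher (13.9 to 18.5) and 13.3-fold higher (9.75 to 17.9). Cyfip2, a regulator of actin, was 22.7- and 18.2-fold higher, with UMIs in 53 Lmx1b and 3 Pdgfra osteoblasts.

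**Figure D2:**
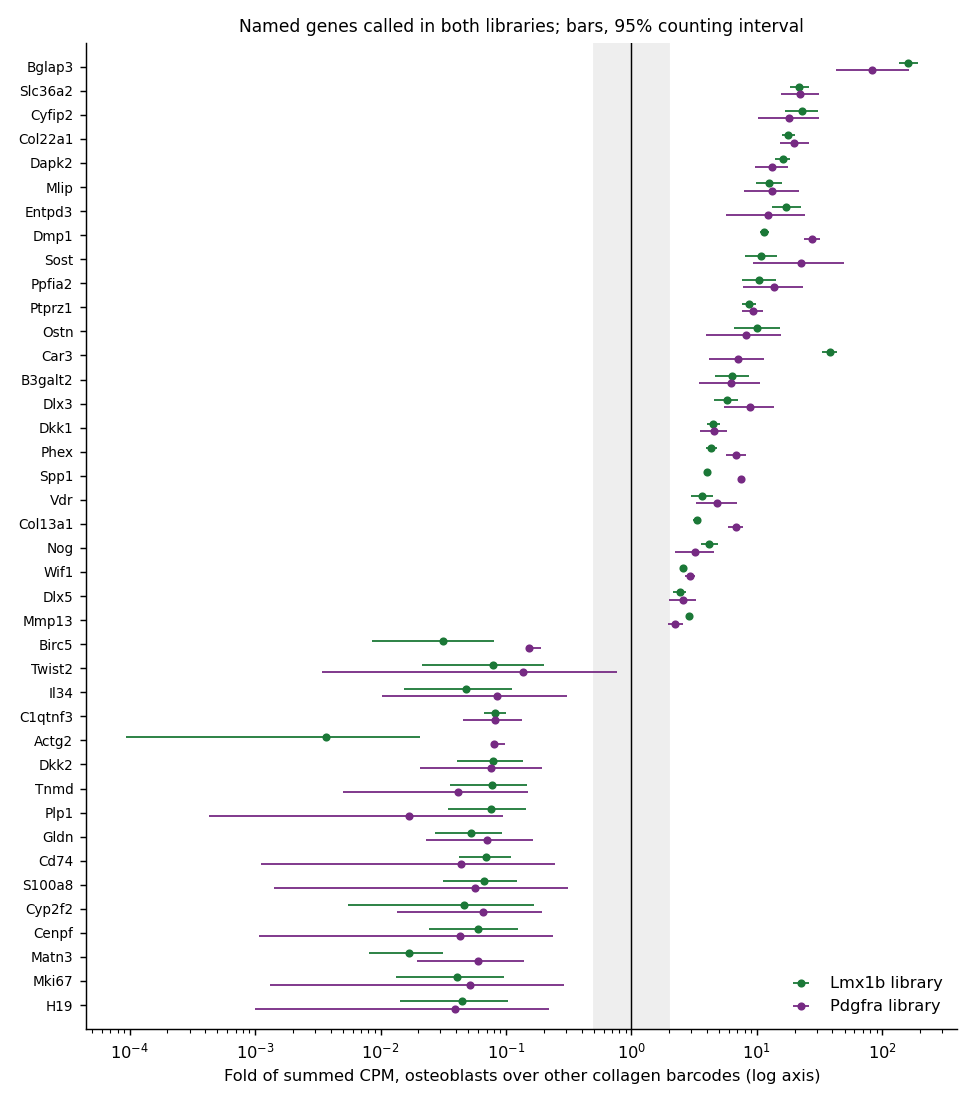
Fold of osteoblasts over other collagen barcodes (horizontal, log axis) for named genes, Bglap and Bglap2 left out, that were 2-fold apart in both libraries, with 95% Poisson intervals for counting error, 1 point per gene and library. Of the genes drawn, Bglap3 lay furthest to the right, at folds of 161 (Lmx1b) and 82.2 (Pdgfra).

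Of 14 cell cycle genes 12 were lower, with medians of -3.31 and -2.32 on the log2 scale against -0.26 and -0.42 for all genes. Mki67, a mark of cycling cells, stood at 1.41 CPM in osteoblasts against 34.4 CPM in other barcodes of the Lmx1b library and at 1.51 against 29.3 CPM in the Pdgfra library. Cartilage genes were lower as well, 10 of 13, among them Matn3, a cartilage matrix protein (58.8- and 16.6-fold lower), and Col2a1, its main collagen (3.16- and 5.31-fold lower). Of 16 precursor genes 8 were lower, such as C1qtnf3 at 28.8 against 351 CPM and 22.7 against 278 CPM, and 1, the collagenase Mmp13, was higher (2.89- and 2.24-fold, but 1.75-fold in the Pdgfra library without the cell with most of its UMIs). Tnmd, of tendon, was 12.9- and 23.9-fold lower, and Sfrp2, of progenitors and nail mesenchyme, 25.7- and 4.72-fold lower. The collagen folding list held 29 measured genes, of which none was higher and 2 were lower (P4ha3 and Loxl2), and Serpinh1, the collagen chaperone, stood at 1278 against 1515 CPM and 1209 against 1306 CPM.

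The summed CPM of each of 12 marker lists of other cell types was below that of the other collagen barcodes in both libraries. Some lists were near 0 on both sides, and their lower sums say little. The B list stood at 0.283 against 1.46 CPM (Lmx1b) and 0 against 0.742 CPM (Pdgfra), and the T and NK list at 0.566 against 2.58 CPM and 0 against 4.16 CPM. The summed level of 6 pericyte and smooth muscle markers was 323 CPM in osteoblasts against 4266 CPM in other barcodes of the Lmx1b library and 430.1 against 3599 CPM in the Pdgfra library. Summed endothelial markers were at 99.5 against 147 CPM and 13.6 against 285 CPM, and summed macrophage markers at 51.8 against 171 CPM and 31.8 against 182 CPM. Summed osteoclast markers were at 605 against 799 CPM and 488 against 712 CPM, and summed cartilage markers at 1344 against 5143 CPM and 849.6 against 3651 CPM. Shares of cells did not all follow the sums: at least 5 CP10k of osteoclast markers were found in 50.3% of osteoblasts against 47.0% of other barcodes (Lmx1b) and 44.4% against 43.1% (Pdgfra), and of cartilage markers in 22.7% against 45.9% and 44.4% against 41.4%. None of the 6 pericyte markers was at 0 in osteoblasts. The part of these cells in the genes lower in osteoblasts was not tested.

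**Figure D3:**
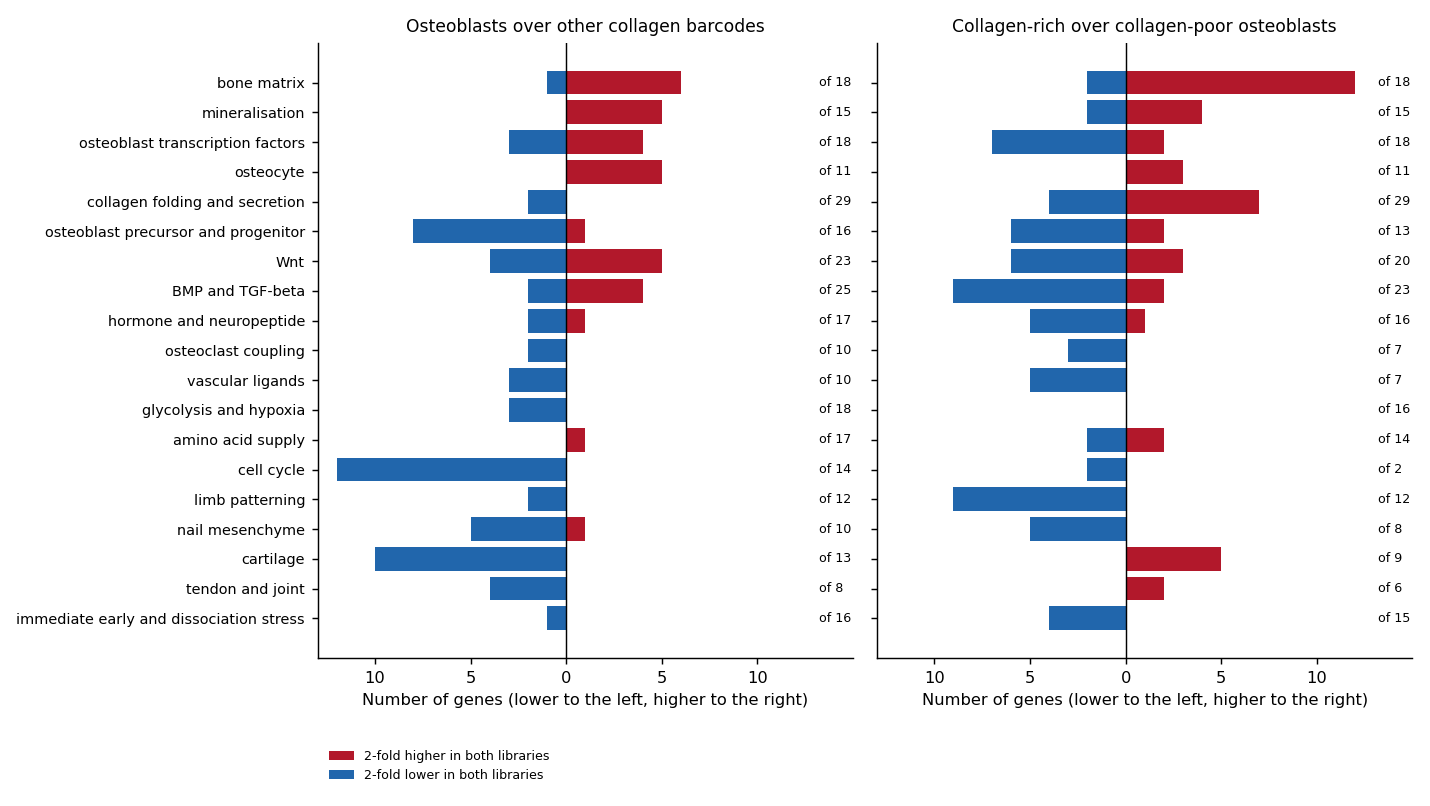
Number of measured genes of each list that were 2-fold higher (right of 0) or lower (left of 0) in both libraries, for osteoblasts over other collagen barcodes (left panel) and collagen-rich over collagen-poor osteoblasts (right panel). Cell cycle genes were lower in the left panel, 12 of 14, and bone matrix genes higher in the right panel, 12 of 18.

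Osteoblasts were not uniform in collagen. Divided at a collagen sum of 600 CP10k, where few cells lay (10 Lmx1b and 3 Pdgfra osteoblasts between 400 and 900 CP10k), 94 Lmx1b osteoblasts were collagen-rich (57.7%, 49.7% to 65.4%) and 69 collagen-poor, and 20 Pdgfra osteoblasts were collagen-rich (74.1%, 53.7% to 88.9%) and 7 collagen-poor. The division was chosen after these values were seen. Median collagen was 1997 CP10k in rich against 211 CP10k in poor cells of the Lmx1b library and 2032 against 242 CP10k in the Pdgfra library. Median Bglap and Bglap2 was 364 against 48.4 CP10k and 131 against 39.6 CP10k, so the poor set lay nearer the threshold. Depth differed less, with median UMIs of 24750.5 against 16231 and 20723.5 against 13980.

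At least 5 CP10k of pericyte and smooth muscle markers were found in 8 of 94 collagen-rich against 19 of 69 collagen-poor Lmx1b osteoblasts, and in 1 of 20 against 2 of 7 Pdgfra osteoblasts. Osteoclast markers reached that level in 34 of 94 rich against 48 of 69 poor Lmx1b cells and in 8 of 20 against 4 of 7 Pdgfra cells. Cartilage markers went the other way, in 30 of 94 against 7 of 69 and in 11 of 20 against 1 of 7. High doublet scores fell on 1 of 94 against 4 of 69 and on 1 of 20 against 0 of 7. Bglap2 had more UMIs than Bglap in 6 of 94 collagen-rich against 34 of 69 collagen-poor Lmx1b cells and in 0 of 20 against 2 of 7 Pdgfra cells. The summed ratio of Bglap to Bglap2 was 2.63 in rich against 0.843 in poor cells of the Lmx1b library and 2.42 against 2.20 in the Pdgfra library. In endothelial barcodes, a cell type that should lack these genes, the ratio was 2.37 in the Lmx1b library (1.86 to 3.04) and 1.85 in the Pdgfra library (1.05 to 3.36). The interval left out the ratio of the poor cells in the Lmx1b library and held it in the Pdgfra library, and the uncertain split of reads between the copies applies to all these ratios. The part of other cell types and doublets in the differences between the sets was not tested.

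Collagen-rich cells exceeded poor ones at 178 of 8541 measured genes (2.08%) and lay below them at 1595 (18.7%), both 2-fold or more in both libraries. The median gene had a log2 fold of -0.75 and -0.53, and centred on it 484 genes were higher and 541 lower. Collagen transcripts made up much of the rich cells' UMIs, and the division used them. Leaving the rule's genes, Ibsp, Sparc and Spp1 out of the totals gave 406 higher and 690 lower genes. Without the cell with most UMIs of each gene, 144 higher and 852 lower genes remained past 2-fold. In the Pdgfra library 1 of the 7 poor cells held 57104 of their 123864 UMIs, and its part in these counts was not tested separately.

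Collagen-rich osteoblasts were higher in Ibsp, Smpd3, Ifitm5, Spp1 and Phex. Ibsp stood at 22716 CPM in rich against 633 CPM in poor cells of the Lmx1b library (35.9-fold, 33.3 to 38.7) and at 27264 against 242 CPM in the Pdgfra library (113-fold, 78.8 to 167). Cell by cell, the median of Ibsp was 93.7 CP10k in rich (3.75 to 857) against 3.59 CP10k in poor cells (0 to 103) of the Lmx1b library and 165 (14.6 to 867) against 3.53 CP10k (1.23 to 11.5) in the Pdgfra library. The ranges did not overlap in the Pdgfra library and overlapped in the Lmx1b library. In endothelial barcodes the medians were 1.92 and 2.71 CP10k, beside 3.59 and 3.53 CP10k in the poor cells.

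Smpd3 was found in most rich and few poor cells. It was found in 83 of 94 rich against 6 of 69 poor cells of the Lmx1b library and in 14 of 20 against 1 of 7 of the Pdgfra library, at 600.5 against 9.28 CPM (64.7-fold, 35.1 to 135) and 843 against 8.07 CPM (104-fold, 18.6 to 4131, 1 UMI in the poor cells). Ifitm5, a membrane protein of mineralising osteoblasts, was 31.9-fold higher (21.9 to 48.6) and 23.4-fold higher (7.93 to 114). Spp1 had medians of 167 CP10k in rich (0.344 to 1763) against 10.5 CP10k in poor cells (0 to 1056) of the Lmx1b library and 288 (2.30 to 1229) against 1.39 CP10k (0 to 38.6) in the Pdgfra library. Of the Spp1 UMIs of the 7 Pdgfra poor cells, 93.4% were in 1 cell.

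Phex and Dmp1 followed. Phex stood at 212 against 46.4 CPM (4.58-fold, 3.42 to 6.25) and at 252 against 24.2 CPM (10.4-fold, 3.48 to 51.0). Dmp1 stood at 453 CPM in rich against 163 CPM in poor cells of the Lmx1b library and at 522 CPM against 0 UMIs in the Pdgfra library, a difference of at least 21.6-fold when 3 UMIs are taken as the floor of the set. All cells with a Sost UMI, 8 and 3, were collagen-rich. Dkk1 was at 158 CPM against 0 UMIs (at least 56.7-fold higher) and at 139.8 against 16.1 CPM (8.66-fold, 2.31 to 72.8). Of 18 bone matrix genes, 12 were higher in rich cells, among them Col11a1, Col11a2, Col13a1, Col22a1 and Col24a1, and 2 lower (Ogn and Mgp). Cartilage genes were higher in rich cells too, 5 of 9, with Col2a1 at 1494 against 29.7 CPM and 520.1 against 16.1 CPM, although in other collagen barcodes it stood at 3309 and 2259 CPM.

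**Figure D4:**
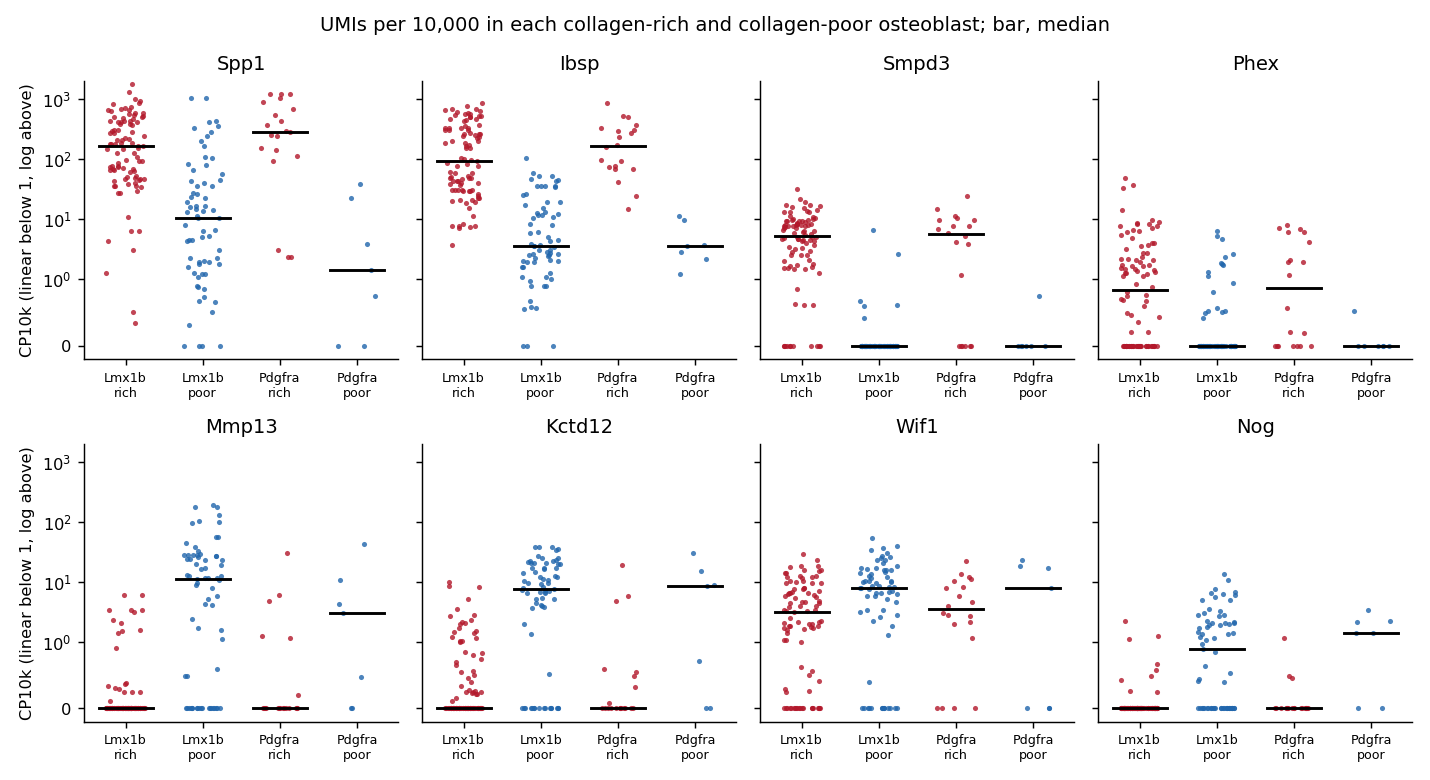
Level per osteoblast (CP10k) of Spp1, Ibsp, Smpd3, Phex, Mmp13, Kctd12, Wif1 and Nog, 1 point per cell and a bar at the median, by set and library. Spp1, Ibsp and Smpd3 had higher medians in collagen-rich cells and Mmp13, Kctd12 and Wif1 in collagen-poor cells of both libraries.

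Collagen-poor osteoblasts had another profile. Mmp13, a collagenase of bone and growth plate, stood at 45.2 CPM in rich against 3257 CPM in poor cells of the Lmx1b library (72.1-fold lower in rich, 59.7 to 87.9) and at 155 against 1074 CPM in the Pdgfra library (6.94-fold lower, 5.24 to 9.24). It was found in 21 of 94 rich against 50 of 69 poor cells and in 6 of 20 against 5 of 7. Nog, the secreted BMP antagonist noggin, was found in 9 of 94 against 41 of 69 and in 3 of 20 against 5 of 7, at 10.6 against 208 CPM (19.6-fold lower, 13.1 to 30.7) and 7.46 against 242 CPM (32.5-fold lower, 11.4 to 127). In other collagen barcodes Nog stood at 16.9 and 15.96 CPM and Mmp13 at 354 and 146 CPM. The rich set thus lay below them in Nog in both libraries and in Mmp13 in the Lmx1b library, and the poor set lay above them in both genes and both libraries.

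Kctd12, an auxiliary subunit of GABA-B receptors, stood at 57.4 against 1275 CPM and at 110.0 against 1284 CPM. Wif1 was 2.13-fold lower in rich cells (1.97 to 2.29) and 3.02-fold lower (2.52 to 3.62). Kcnk2, a potassium channel, was at 9.76 against 138 CPM and 1.86 against 105 CPM. Ostn, a peptide hormone of bone and muscle, had 0 UMIs in rich cells of either library, against 43.6 and 88.8 CPM in poor cells, those of the Pdgfra library all in 1 cell. Ogn, a small leucine-rich proteoglycan, was 57.2-fold lower in rich cells (37.4 to 92.0) and 20.8-fold lower (10.4 to 46.1), at 8.95 against 512 CPM and 18.6 against 388 CPM.

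Some signals to osteoclasts and vessels were lower in rich cells, where 18.7% of all measured genes were. Of 7 osteoclast-coupling genes 3 were lower: Tnfsf11, which encodes RANKL (2.85 against 55.7 CPM and 1.86 against 32.3 CPM, the Pdgfra values from 1 cell in each set), Csf1 (10.6 against 109 CPM and 11.2 against 72.7 CPM) and Cxcl12 (21.8- and 6.06-fold lower). Without the cell with most of its UMIs, Tnfsf11 was no longer past 2-fold in both libraries. Of 7 vascular ligands 5 were lower in rich cells, of which Vegfb and Angpt1 remained past 2-fold without the cell with most of their UMIs and Vegfa, Vegfc and Angpt2 did not. Of 12 limb patterning genes 9 were lower in rich cells (7 without the cell with most UMIs of each), with medians of -2.02 and -1.67 on the log2 scale against -0.75 and -0.53 for all genes, as in Hoxa13 at 13.4 against 64.9 CPM and 24.2 against 72.7 CPM. None of 16 glycolysis genes was 2-fold apart in the same direction in both libraries.

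Runx2, Sp7 and Alpl were each within 2-fold between the sets in both libraries. Runx2 stood at 202 against 347 CPM and 259 against 476 CPM, Sp7 at 237 against 129 CPM and 192 against 137 CPM, and Alpl at 1282 against 1767 CPM and 1251 against 1978 CPM. Set against other collagen barcodes, 157 of 9271 genes were higher (1.69%) and 1463 lower (15.8%) in the rich set, and 367 of 9419 were higher (3.90%) and 273 lower (2.90%) in the poor set. The lists of higher genes shared 28, 17.8% of the rich and 7.63% of the poor list, and Bglap3, Slc36a2, Dapk2, Ptprz1, Lrp4 and Vdr were among them. Runx2 was 2.70- and 3.73-fold higher in the poor set than in other collagen barcodes, and Ibsp was 0.0399 and 0.0181 of its level there.

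The collagen-rich set was also divided by osteocalcin. Cells at 100 CP10k or more of Bglap and Bglap2 (72 Lmx1b and 11 Pdgfra) and cells under 100 CP10k (22 and 9) were of like depth, with median UMIs of 24143.5 against 26539 and 21752 against 20430, and of like collagen, at 1994 against 2111 and 2082 against 1982 CP10k. Of 7839 genes, 75 were higher in the cells with more osteocalcin (0.957%) and 116 lower (1.48%), of which 31 and 15 remained past 2-fold without the cell with most UMIs of each gene. This comparison was chosen after the data were seen, since along the whole Bglap range the upper end was nearly all collagen-rich: of 53 Lmx1b osteoblasts at 300 CP10k or more, 51 were rich, and only 1 Pdgfra osteoblast was that high.

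Car3 was higher in the cells with more osteocalcin, at 445 against 72.7 CPM (6.12-fold, 4.49 to 8.55) and at 50.4 against 15.1 CPM (3.34-fold, 0.966 to 17.8), an interval that includes 1. Dapk2 stood at 118 against 34.6 CPM (3.39-fold, 2.14 to 5.66) and at 124 against 45.2 CPM (2.75-fold, 1.32 to 6.43). Comp, a matrix protein of cartilage and tendon, was lower, at 3198 against 8037 CPM (2.51-fold lower, 2.42 to 2.61) and at 2273 against 7042 CPM (3.10-fold lower, 2.84 to 3.39). Each of these remained past 2-fold without the cell with most of its UMIs. Ibsp was lower as well, at 17469.5 against 39802 CPM (2.28-fold lower) and at 17234 against 44278 CPM (2.57-fold lower), but the Pdgfra fold was 1.76 without 1 cell. Spp1 did not follow Ibsp, at 35341 against 28553 CPM and 40749 against 51817 CPM, and Smpd3, Runx2 and Sp7 were each within 2-fold in both libraries.

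Along that whole range, 34 of 8080 genes were higher at 300 CP10k or more than at 30 to under 100 CP10k in both libraries (0.421%) and 401 lower (4.96%). With the upper end from 100 CP10k, 27 of 8551 were higher (0.316%) and 343 lower (4.01%). Kctd12, Cxcl12, Apoe, Ogn and Mdk were among the genes lower at 300 CP10k or more, where the Pdgfra library had 1 osteoblast. With the upper end from 100 CP10k none of these 5 was 2-fold apart in both libraries, and their Pdgfra folds were 1.31 for Kctd12, 1.15 for Cxcl12, 1.30 for Apoe, 0.629 for Ogn and 1.05 for Mdk. Within the collagen-rich set alone none of them was called either. Their folds there were 1.42 for Kctd12, 1.96 for Cxcl12, 3.25 for Apoe, 1.38 for Ogn and 1.88 for Mdk in the Lmx1b library, of which the interval of Apoe alone left out 1 (1.80 to 6.46). In the Pdgfra library they were 16.8 for Kctd12, 0.700 for Cxcl12, 1.46 for Apoe, 5.31 for Ogn and 0.337 for Mdk, so the direction was not shared by the libraries for Cxcl12 and Mdk. The Kctd12 value rests on 57 against 2 UMIs (4.44 to 142) and that of Ogn on 9 against 1 (0.735 to 233). Most of those Kctd12 UMIs came from a cell of 21752 UMIs at 18.8 CP10k, whose collagen of 714 CP10k lay near the division.

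Between the lines, osteoblasts of the Lmx1b library were 2-fold higher than those of the Pdgfra library at 734 of 9219 measured genes (7.96%) and lower at 335 (3.63%). These counts rest on the settings: with every cell thinned to 5000 UMIs 912 genes were higher and 1630 lower, at a mean of 20 CPM or more 180 and 68, and without a filter on mean CPM 1172 and 1041. Of the 7 defining markers, 2 of them used by the rule, 4 were higher and 0 lower. Their median log2 fold was 1.29, against 0.098 for all genes, and 0.61 in other collagen barcodes. Some other named genes were close: Runx2 stood at 246 against 299.9 CPM, Sp7 at 204 against 182 CPM, Alpl at 1430.1 against 1387 CPM, Wif1 at 779.9 against 763 CPM and Dkk1 at 109.7 against 117 CPM. Bglap3 was at 626 against 42.4 CPM (14.8-fold, 10.2 to 22.3) and Car3 at 250.3 against 30.3 CPM (8.26-fold, 5.32 to 13.6). In other collagen barcodes the same folds were 7.52 for Bglap3 and 1.54 for Car3. Saa3, an acute phase protein, had 314 UMIs against 0 (at least 19.5-fold higher) and was also higher in other barcodes, at 163 against 14.8 CPM. Meg3, an imprinted noncoding RNA, was at 2.55 against 62.1 CPM (24.4-fold lower, 11.7 to 57.1), and at 181 against 318 CPM in other barcodes. Xist, the RNA of the inactive X chromosome, had 0 UMIs in Lmx1b osteoblasts and 6.06 CPM in Pdgfra osteoblasts, from 4 UMIs of 1 cell. In other barcodes Xist stood at 25.9 and 7.71 CPM.

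Gal, which encodes the neuropeptide galanin, went opposite ways. In the Lmx1b library it stood at 239 CPM in osteoblasts against 105 CPM in other collagen barcodes (2.27-fold higher, 2.10 to 2.44), and in the Pdgfra library at 16.7 against 69.0 CPM (4.14-fold lower, 2.31 to 8.31). A single cell held 32.2% of its UMIs in the Lmx1b osteoblasts, and the fold without it was 1.56. Within the Lmx1b osteoblasts Gal stood at 343 CPM in collagen-rich against 1.86 CPM in collagen-poor cells. It was found in 39 of 163 Lmx1b and 6 of 27 Pdgfra osteoblasts. Wnt4, a Wnt ligand, went the same way as Gal, at 48.1 against 15.8 CPM and 6.06 against 15.4 CPM, the last pair resting on 4 UMIs in osteoblasts with an interval of the fold that included 1 (2.55-fold lower, 0.989 to 9.40).

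At the threshold used, the reporter marked few osteoblasts in the Lmx1b line and a larger share in the Pdgfra line. At 1600 CPM of tdTomato or more, 3 of 163 Lmx1b osteoblasts were labelled (1.84%, 0.381% to 5.28%), against 75 of 1758 other collagen barcodes (4.27%, 3.37% to 5.32%). In the Pdgfra library 15 of 27 were labelled (55.6%, 35.3% to 74.5%), against 934 of 1829 (51.1%, 48.8% to 53.4%). In both libraries the interval of the osteoblasts overlapped that of the other barcodes. Lmx1b itself had 0 UMIs in osteoblasts of the Lmx1b library. In the Pdgfra library, 2 of the 15 labelled osteoblasts held Lmx1b UMIs, at 14.4 CPM in the labelled sum. None of the 12 unlabelled Pdgfra osteoblasts held any. At 800 CPM the Pdgfra share was 81.5% and at 3200 CPM 18.5%, so the threshold sets its size. At least 1 tdTomato UMI was found in 76.7% of Lmx1b and 88.9% of Pdgfra osteoblasts, and in 72.4% of 872 Lmx1b barcodes under the collagen threshold, none of which reached 1600 CPM. Of 518 Pdgfra barcodes under the collagen threshold, 81.1% had a tdTomato UMI and 87 (16.8%) reached 1600 CPM.

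By set, 2 of 94 collagen-rich against 1 of 69 collagen-poor Lmx1b osteoblasts were labelled, and 9 of 20 (45.0%) against 6 of 7 (85.7%) Pdgfra osteoblasts. The 15 labelled Pdgfra osteoblasts had a median Bglap and Bglap2 of 68.7 CP10k and a median collagen of 845 CP10k, against 88.6 and 2233 CP10k in the 12 unlabelled ones.

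**Figure D5:**
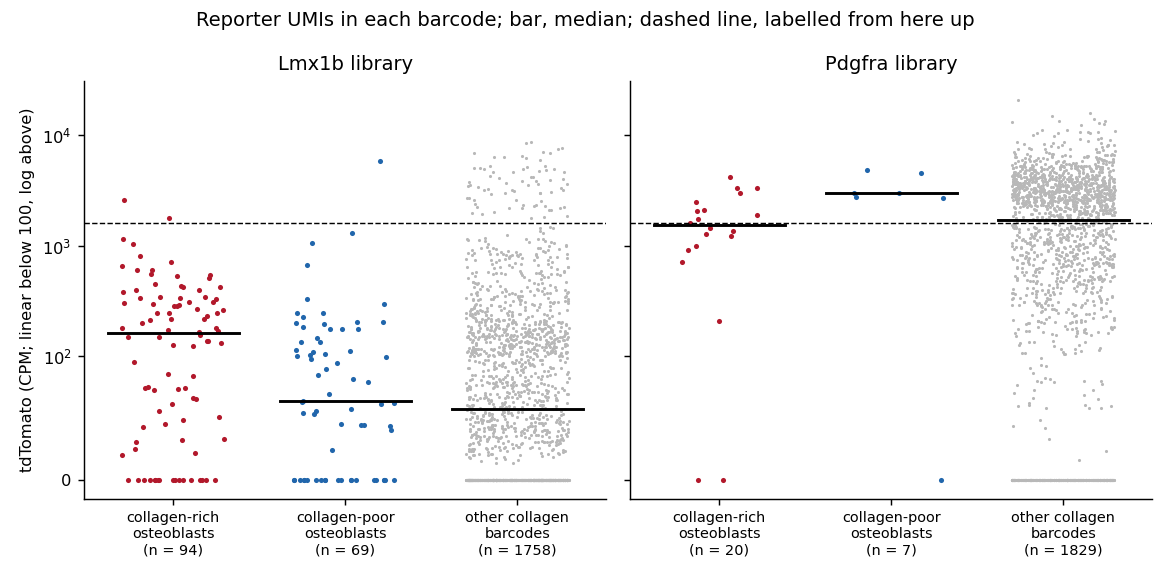
tdTomato (CPM) per barcode in collagen-rich osteoblasts, collagen-poor osteoblasts and other collagen barcodes of each library, with a line at 1600 CPM. In the Lmx1b library 3 osteoblasts lay at or above the line, and in the Pdgfra library 15.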

How the data were processed

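Single-cell transcripts of 2 libraries, 1 per mouse line, were analysed. Per the submitters' processing notes the authors used Cell Ranger (4.0.0 per the file headers) with mm10, and per the labels the tdTomato sequence had been added to that genome. The authors deposited unnormalised counts of UMIs for each gene in each barcode. Barcodes passed with 500 genes or more and no more than 10% of UMIs from mitochondrial genes. Doublets were scored with Scrublet (scanpy 1.11.5) but left in; an alternative took out the highest 0.8% per 1000 barcodes of each library.

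UMIs were summed over the cells of each set within a library and given as CPM. Folds carry exact 95% Poisson intervals and shares exact Clopper-Pearson intervals, both for counting error only. A gene was called where it was at least 2-fold apart in the same direction in both libraries, with a mean of at least 5 CPM over the sets in each; a set with 0 UMIs was placed at a floor of 3 UMIs. With 1 library per line there is no replicate and no test was run. The procedure was tested on simulated data, with Poisson counts drawn for the summed sets. The simulation held no spread between cells, so it bears on counting error only. Python 3.11.15, numpy 2.4.6, scipy 1.17.1, pandas 2.3.3 and matplotlib 3.10.9 were used.

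The osteoblasts, the gene lists and the 1600 CPM threshold of tdTomato were chosen with earlier results of these data known, and the division at 600 CP10k of collagen after the osteoblasts were seen. The named genes were the 7 markers, the 15 called genes highest and the 15 lowest by the fold nearer 1 outside the 5 genes that chose the cells, up to 4 members of each list by the same measure together with members that went opposite ways, the 8 highest and the 8 lowest along the Bglap range and between the libraries, sex chromosome genes, tdTomato, Lmx1b and Pdgfra. 1 gene of the transcription factor list is not reported here. Genes named for the collagen-rich and collagen-poor sets, for the division by osteocalcin and for single cells were chosen after their values were seen. Promoter and transcript sequences came from RefSeq (GRCm38.p6) and GENCODE on mm10.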

Additional observations from a re-analysis of the deposited data

Results flagged for a closer look

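For 2 genes the osteoblasts moved opposite ways in the 2 libraries relative to the other collagen barcodes. For Gal the log2 fold was 1.18 among Lmx1b and -2.05 among Pdgfra barcodes. For Wnt4 it was 1.61 among Lmx1b and -1.35 among Pdgfra barcodes. With 1 library per line the difference was not tested for either gene. The Pdgfra values rest on 11 UMIs of Gal and 4 UMIs of Wnt4 in osteoblasts, and without the cell with most of its UMIs the Lmx1b fold of Gal was 1.56.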

How the results depend on the processing

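Alternatives were chosen in part after seeing the data, namely the collagen sets, centring, the totals without abundant genes and the leaving out of single cells or of barcodes with markers of other cell types. A filter of 1000 genes and 5% mitochondrial UMIs gave osteoblast shares of 10.4% (Lmx1b, 74 of 714) and 0.890% (Pdgfra, 3 of 337). The Pdgfra labelled share became 33.3%, 1 of 3 osteoblasts (0.840% to 90.6%). This filter gave 437 genes lower than in other collagen barcodes, 13 higher and 187 lower along the Bglap range, and 1573 higher and 798 lower between libraries. Pdgfra log2 folds became -0.86 for Slc20a2, -0.14 for Mmp13 and -0.15 for Nog. All Pdgfra osteoblast values under this filter rest on those 3 cells. None of them was collagen-poor, so the sets could not be compared. A Bglap threshold of 60 CP10k gave shares of 5.41% and 0.862%, 651 lower genes between libraries and -0.041 for Slc20a2 (Lmx1b), and one of 15 CP10k gave 11.3% and 2.48%. The mean of each cell's CPM gave 86 higher and 606 lower genes along the range, 1580 and 635 between libraries, and 0.15 for Matn3 (Pdgfra), 0.83 for Nov and -1.29 for Srgn (Lmx1b over Pdgfra). Without the filter on mean CPM 295 genes were higher than in other barcodes, and 1172 higher and 1041 lower between libraries; at 20 CPM the counts were 85 and 302 against other barcodes, 16 and 239 along the range, and 180 and 68 between libraries. Thinning to 5000 UMIs gave 390 lower genes against other barcodes, 1630 lower between libraries, 70 higher and 996 lower between the sets, and -0.30 for Chac1 (Lmx1b). Centring gave 218 and 467 against other barcodes and 484 and 541 between the sets, and totals without the abundant genes 406 and 690 between the sets. Without the cell with most UMIs of each gene 852 genes stayed lower between the sets. The Pdgfra labelled share was 81.5% at 800 CPM, 18.5% at 3200 CPM and 85.7% in collagen-poor cells. Collagen-rich osteoblasts alone were 4.89% of Lmx1b collagen barcodes, with 1463 genes lower than in other barcodes and 739 lower between libraries. Their log2 folds turned to -0.86 and -1.02 for Slc20a2, -0.67 and -1.10 for Nog (Lmx1b and Pdgfra), -2.97 for Mmp13 and -0.12 for Ostn (Lmx1b), and -1.20 for Mmp3 between libraries. Collagen-poor osteoblasts alone gave 367 higher and 273 lower genes against other barcodes and 1194 and 1030 between libraries. Their log2 folds turned in both libraries for Spp1 (-0.058 and -2.17), Col13a1 (-1.90 and -2.75) and Dkk1 (-3.13 and -0.67), in the Lmx1b library for Chac1 (-2.08), Car3 (-0.24) and Col22a1 (-2.57), and in the Pdgfra library for Phex (-0.33) and Aspn (0.22). Along the range with the upper end from 100 CP10k, Pdgfra values turned to 0.067 for Mdk, 0.39 for Kctd12, 0.20 for Cxcl12 and 0.38 for Apoe. Within the rich set 75 genes were higher and 116 lower, and values turned to 0.91 for Mdk, 0.51 and 4.07 for Kctd12, 0.97 for Cxcl12, 1.70 and 0.54 for Apoe, 0.47 and 2.41 for Ogn and 0.76 for Gas6. The cause of these shifts was not tested. Gene-level values under these alternatives were compared with the counting interval of the main analysis. Against other barcodes 1209 of 1673 stayed within that interval, and between the sets 407 of 475. Along the range 189 of 247 did so, and between libraries 136 of 174. No paired analysis was possible because each line had 1 library.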
